A study of Mus musculus with 12 samples.

Results

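The D cyclins, the kinases they activate and the inhibitors of those kinases were followed in mouse embryonic stem cells labelled as Id1 knockout and, in 1 of the groups, also as depleted of Zrf1. The 10 genes were read by all 18 array probes whose gene name in the scanner files was Ccnd1, Ccnd2, Ccnd3, Cdk4, Cdk6, Cdkn1a, Cdkn1b, Cdkn2a, Cdkn2b or Cdkn2c, of 55681 non-control probes and 36406 gene names. Total RNA was hybridised to 12 one-colour arrays, 1 per sample, with 4 samples each of Id1KO_Zrf1KD, Id1KO and WT cells. The series describes the 4 samples of a group as independent biological samples. Id1KO_Zrf1KD cells were Id1KO cells infected with pLKO lentiviruses carrying short hairpins against Zrf1 and kept after puromycin selection, Id1KO cells carried the knockout alone, and WT cells carried neither. All 3 groups grew in GMEM, a basal medium, with fetal bovine serum and leukaemia inhibitory factor (LIF), which keeps mouse embryonic stem cells undifferentiated. The labels describe no Id1KO cells with a control hairpin, so depletion of Zrf1 cannot be told apart from infection and selection. They name no separate lines within a group, so the Id1 genotype cannot be told apart from the line that carries it.

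The level of a probe is given here as log2 of its processed signal minus log2 of the 75th percentile of that array, so that 0 is the brightness of a spot at the 75th percentile. Levels of different probes are not comparable, and fold changes are differences between group means of these levels, with their standard error from limma. Before scaling, that percentile was 554.0 to 596.5 on the Id1KO_Zrf1KD arrays, 393.3 to 491.8 on the Id1KO arrays and 440.7 to 550.2 on the WT arrays, and between 54.8% and 59.3% of spots were well above background. Dnajc2, the gene of Zrf1, had a mean level of -0.27 in Id1KO_Zrf1KD cells and 1.89 in Id1KO cells, a fall by 2.16 ± 0.07 (SE; adjusted p = 1.2e-09). The Id1 probe averaged 0.68 in Id1KO_Zrf1KD, 1.23 in Id1KO and 0.86 in WT cells. It was not called different in Id1KO against WT cells (0.37 ± 0.15, SE; adjusted p = 0.053) and was lower in Id1KO_Zrf1KD than in Id1KO cells (-0.55 ± 0.15, SE; adjusted p = 0.0079). The labels do not say which part of Id1 was deleted, and this probe therefore checks nothing about the knockout. All 10 embryonic stem cell markers listed for the study (Pou5f1, Nanog, Sox2, Zfp42, Esrrb, Utf1, Dppa5a, Lin28a, Tdgf1 and Klf4) were above background in each group.

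Cyclins D1, D2 and D3 are the regulatory subunits that growth factor signals supply to Cdk4 and Cdk6, and the active kinases phosphorylate the retinoblastoma protein and so release transcription factors of the E2f family at the entry to S phase. Inhibitors of the Ink4 family (p15 from Cdkn2b, p16 from Cdkn2a and p18 from Cdkn2c) bind Cdk4 and Cdk6 directly, while those of the Cip/Kip family (p21 from Cdkn1a and p27 from Cdkn1b) bind cyclin and kinase complexes, including those of Cdk2. Cdkn2a also encodes Arf from another reading frame, a protein that stabilises p53, and Cdkn1a is the best known target of p53. Mouse embryonic stem cells are known for a short G1 phase and for low activity of these inhibitors. Id1 binds and blocks transcription factors of the basic helix-loop-helix class, and Zrf1 is known to displace a Polycomb repressive complex from ubiquitylated histone.

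Cdkn1a is the member whose probes parted most, and the 3 stretches it was read from are shown here because they lie far apart on the gene. Parts of each probe, as held in the scanner files, are given 5′ to 3′ in the sense of the transcript, with the start codon context of the coding sequence in capitals where a probe holds it.
Cdkn1a 5′ probe A_55_P1986282, first 30 bases: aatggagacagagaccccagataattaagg
Cdkn1a start-codon probe A_55_P1976204, last 30 bases: tcttgtgtttcagccacaggCACCATGtcc
Cdkn1a 3′ probe A_51_P363947, last 30 bases: gctgatcctttctcagtgttgaataccgtg
On build mm9, plus strand, the 5′ probe lies at chr17:29227986-29228045, the start-codon probe at chr17:29235299-29235358 and the 3′ probe at chr17:29237377-29237436. The first is 7313 bases before the second and 9391 bases before the last, counted between probe starts. In the files the 3′ probe is assigned to both RefSeq transcripts of the gene, the 5′ probe to the second RefSeq transcript variant alone, and the start-codon probe to an Ensembl transcript and to no RefSeq transcript. The start codon lies near the 3′ end of the start-codon probe, so most of its bases precede the coding sequence. It is therefore no measure of the coding sequence, and whether the RefSeq transcripts hold its bases was not tested. Only the 3′ probe was spotted more than once, with 10 spots on each array, and its spots differed by an SD between 0.0207 and 0.0713 within an array.

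Of the 18 probes, 17 passed the filter (well above background throughout 1 group or more) and were tested, and they covered 9 of the 10 genes. Cdk6, the other kinase partner of the D cyclins, has 1 probe here (chr5:3522106-3522165, mm9), which was well above background on 0 of 12 arrays, so no fold change is given for it. Against WT, 14 of the 17 tested probes changed in Id1KO cells, with 6 higher and 8 lower, where 70.4% of all 30885 tested probes changed (42.3% higher and 28.1% lower). Their median log2 fold change was -0.12, beside 0.16 over all tested probes. In Id1KO_Zrf1KD against Id1KO cells 16 changed, 11 higher and 5 lower, where 71% of all tested probes changed (30.3% higher and 40.6% lower), and the median was 1.02 beside -0.12 over all tested probes. In Id1KO_Zrf1KD against WT cells 11 changed, 6 higher and 5 lower, where 63.7% of all tested probes changed (31.4% higher and 32.4% lower), with a median of 0.024 beside -0.028. With quantile normalization the last split was 5 higher and 7 lower, and the medians over all tested probes in the 3 comparisons were 0.020, -0.00074 and -0.040. It put 34.9% of them higher and 33.3% lower in the first comparison and 34.3% higher and 34.1% lower in the second. The comparisons share arrays, so opposite changes in the first 2 are not independent of each other.

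**Figure D1:**
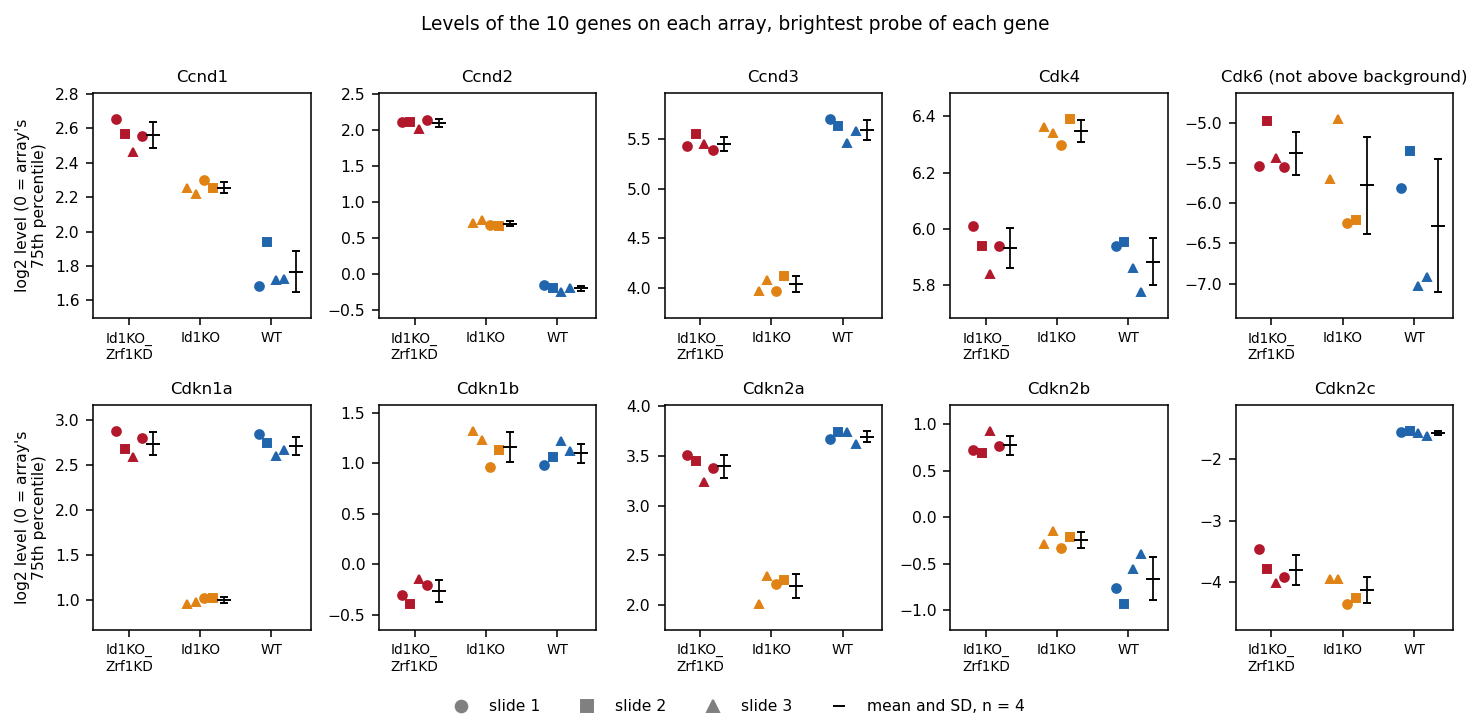
Level of each gene on the 12 arrays (brightest probe; log2, 0 = the array's 75th percentile), with Id1KO_Zrf1KD, Id1KO and WT from left to right, symbols by slide, and bars for the mean and SD of 4 arrays. Ccnd3, Cdkn1a and Cdkn2a were lowest on the 4 Id1KO arrays, Cdkn1b on the 4 Id1KO_Zrf1KD arrays, Ccnd2 stood in 3 separate steps, and Cdk6 was not above background on any array.

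The 3 D cyclins moved in different patterns. Cyclin D2 and cyclin D1 were higher in Id1KO than in WT cells and higher again in Id1KO_Zrf1KD cells, whereas cyclin D3 was lower in Id1KO cells than in both other groups. For Ccnd2 the levels were 2.11, 2.11, 2.01 and 2.13 on the 4 Id1KO_Zrf1KD arrays, 0.71, 0.74, 0.67 and 0.67 on the Id1KO arrays, and -0.15, -0.20, -0.25 and -0.20 on the WT arrays. The 3 groups did not overlap, and the gaps between them exceeded the spread within a group by far (SD up to 0.05 within a group). Id1KO exceeded WT by 0.90 ± 0.04 (1.86-fold, adjusted p = 9.3e-09), and Id1KO_Zrf1KD exceeded Id1KO by 1.39 ± 0.04 (2.62-fold, adjusted p = 5.3e-10) and WT by 2.29 ± 0.04 (4.89-fold, adjusted p = 6.7e-12). The probe is shown because it carried the largest rise among the D cyclins in Id1KO_Zrf1KD against WT cells.
Ccnd2 probe A_52_P53906, chr6:127098696-127098755, mm9, minus strand: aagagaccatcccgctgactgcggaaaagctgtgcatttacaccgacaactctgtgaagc

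Ccnd1, the D cyclin best known as a target of mitogen and Wnt signals, followed the same order with smaller steps. Its levels were 2.65, 2.57, 2.46 and 2.56 in Id1KO_Zrf1KD cells, 2.25, 2.22, 2.30 and 2.25 in Id1KO cells, and 1.68, 1.94, 1.72 and 1.73 in WT cells. No group overlapped another, although WT replicate 2 stood above the other 3 WT arrays. Id1KO was higher than WT by 0.49 ± 0.06 (1.40-fold, adjusted p = 3.2e-05), and Id1KO_Zrf1KD was higher than Id1KO by 0.30 ± 0.06 (1.24-fold, adjusted p = 0.0011) and than WT by 0.79 ± 0.06 (1.73-fold, adjusted p = 7.1e-07). The step over Id1KO was 0.31, 0.32 and 0.23 within the 3 slides.

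Ccnd3 was read by 2 probes (chr17:47736579-47736638 and chr17:47736267-47736326, mm9), and both gave the same picture. The brighter probe had levels of 5.43, 5.55, 5.46 and 5.39 in Id1KO_Zrf1KD cells, 3.98, 4.09, 3.97 and 4.13 in Id1KO cells, and 5.70, 5.63, 5.46 and 5.58 in WT cells. All 4 Id1KO arrays lay below every array of the other groups, which overlapped each other. Id1KO was lower than WT by a log2 fold change of -1.55 ± 0.06 (2.93-fold, adjusted p = 3.0e-09) and Id1KO_Zrf1KD exceeded Id1KO by 1.41 ± 0.06 (2.66-fold, adjusted p = 7.6e-09). The other Ccnd3 probe gave -1.54 ± 0.06 and 1.46 ± 0.06. Id1KO_Zrf1KD and WT were not called different, at -0.14 (95% interval -0.28 to 0.00096, adjusted p = 0.077) and -0.080 (-0.22 to 0.062, adjusted p = 0.30) for the 2 probes. This call turned on the scaling, since with quantile normalization, and likewise with normexp or the deposited values, both Ccnd3 probes were lower in Id1KO_Zrf1KD than in WT cells, by -0.30 (adjusted p = 0.0037) and -0.27 (adjusted p = 0.0078) under the first. The brighter probe was also called lower without WT replicate 3 or without Id1KO_Zrf1KD replicate 2.

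Cdk4, the catalytic partner of the D cyclins, moved little, and in the opposite sense to cyclin D3. The brightest of its 3 probes had levels of 6.01, 5.94, 5.84 and 5.94 in Id1KO_Zrf1KD cells, 6.36, 6.34, 6.30 and 6.39 in Id1KO cells, and 5.94, 5.95, 5.86 and 5.78 in WT cells. Every Id1KO array stood above all arrays of the other groups. Across the 3 probes Id1KO exceeded WT by 0.46 to 0.62 (adjusted p between 6.4e-06 and 6.5e-05), and Id1KO_Zrf1KD was below Id1KO by log2 fold changes from -0.59 to -0.40 (adjusted p between 3.4e-05 and 9.3e-05). For the brightest probe quantile normalization reduced the first difference to 0.14, with an adjusted p of 0.075, so that its call was lost. The other 2 Cdk4 probes kept theirs, at 0.44 and 0.37. In Id1KO_Zrf1KD against WT cells 1 of the 3 probes was higher by 0.15 ± 0.06 (adjusted p = 0.038), a call that was lost under 12 of 14 other settings. That probe is shown because it lies furthest 5′ of the 3.
Cdk4 probe A_55_P2166639, chr10:126503162-126503221, mm9, plus strand: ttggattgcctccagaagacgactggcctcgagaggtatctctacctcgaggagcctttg

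**Figure D2:**
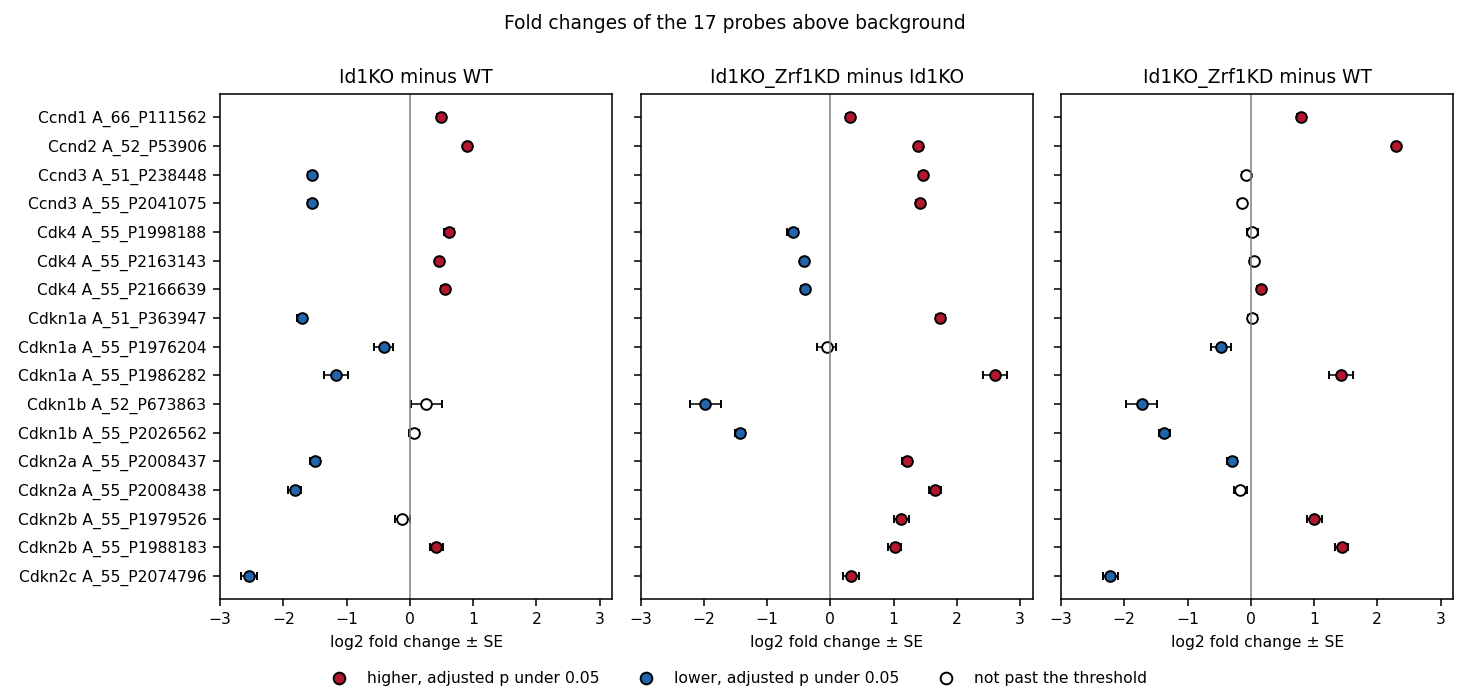
Log2 fold change (points) with its SE (bars) for the 17 probes tested, in Id1KO minus WT, Id1KO_Zrf1KD minus Id1KO and Id1KO_Zrf1KD minus WT, coloured by call at an adjusted p under 0.05. Probes of Ccnd3, Cdkn1a and Cdkn2a lie left of 0 in the first panel and, apart from the start-codon probe of Cdkn1a, right of 0 in the second, while Ccnd1 and Ccnd2 lie right of 0 in all 3.

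Of the Cip/Kip inhibitors, Cdkn1a fell in Id1KO cells and its 3′ signal did not differ detectably between Id1KO_Zrf1KD and WT cells, whereas Cdkn1b did not differ detectably between Id1KO and WT cells and fell in Id1KO_Zrf1KD cells. The 3′ probe of Cdkn1a had levels of 2.87, 2.67, 2.58 and 2.80 in Id1KO_Zrf1KD cells, 0.96, 0.98, 1.02 and 1.03 in Id1KO cells, and 2.84, 2.74, 2.59 and 2.67 in WT cells. The Id1KO arrays formed a tight group far below the others, which covered nearly the same range. Id1KO was lower than WT by a log2 fold change of -1.71 ± 0.07 (3.28-fold, adjusted p = 3.4e-09), and Id1KO_Zrf1KD was higher than Id1KO by 1.74 ± 0.07 (3.33-fold, adjusted p = 3.8e-09). Between Id1KO_Zrf1KD and WT the difference was 0.024, with a 95% interval from -0.13 to 0.18 (adjusted p = 0.78), and it was -0.080 with quantile normalization.

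The 5′ probe of Cdkn1a, assigned to the second RefSeq variant, placed the 3 groups differently. Its levels were -0.78, -0.87, -1.17 and -0.89 in Id1KO_Zrf1KD cells, -4.03, -3.60, -3.01 and -3.47 in Id1KO cells, and -2.28, -2.15, -2.61 and -2.38 in WT cells. All 12 arrays were well above background, no groups overlapped, and the Id1KO_Zrf1KD arrays stood above WT rather than level with it. Id1KO was lower than WT by a log2 fold change of -1.17 ± 0.19 (2.25-fold, adjusted p = 1.8e-04), Id1KO_Zrf1KD was higher than Id1KO by 2.60 ± 0.19 (6.06-fold, adjusted p = 3.1e-07) and higher than WT by 1.43 ± 0.19 (2.69-fold, adjusted p = 4.5e-05). With normexp background correction the rise over Id1KO was 1.73 and that over WT 1.01, and both calls held.

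The start-codon probe of Cdkn1a, most of whose bases precede the coding sequence, differed little between the groups. It read -3.38, -3.37, -4.02 and -3.73 in Id1KO_Zrf1KD cells, -3.77, -3.60, -3.69 and -3.22 in Id1KO cells, and -3.22, -3.12, -3.12 and -3.16 in WT cells. WT was highest, and Id1KO overlapped both other groups. The probe was lower in Id1KO than in WT cells by -0.41 ± 0.15 (adjusted p = 0.030), a call lost when any 1 of 6 arrays was left out, and lower in Id1KO_Zrf1KD than in WT cells by -0.47 ± 0.15 (adjusted p = 0.018). With normexp the last was -0.16 and still called. In Id1KO_Zrf1KD against Id1KO cells it differed by -0.057 (95% interval -0.39 to 0.28, adjusted p = 0.75), and under quantile normalization by 0.37 (adjusted p = 0.030).

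**Figure D3:**
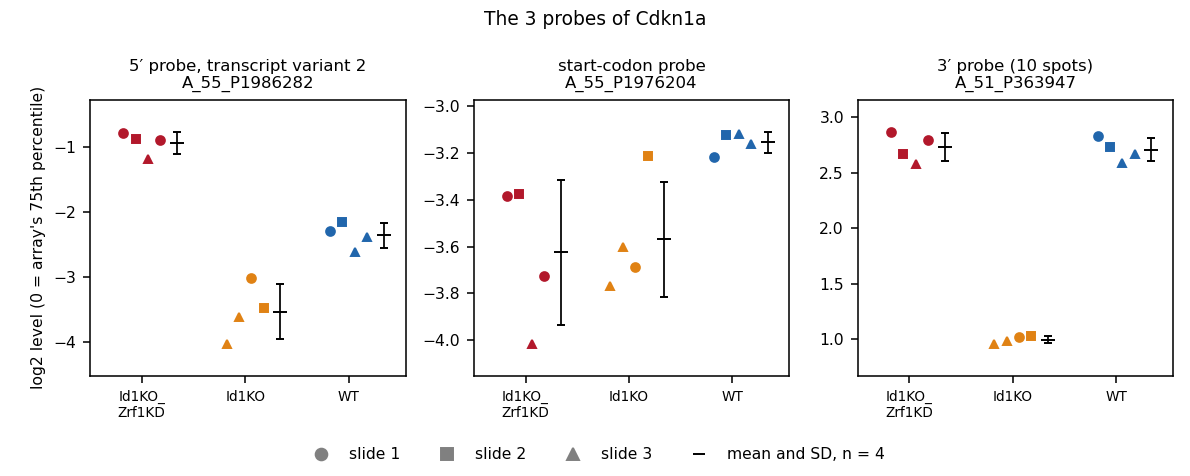
Level on each array (log2, 0 = the array's 75th percentile) for the 5′, start-codon and 3′ probes of Cdkn1a, with Id1KO_Zrf1KD, Id1KO and WT from left to right and bars for the mean and SD of 4 arrays. Against WT, Id1KO_Zrf1KD stood 1.43 higher on the 5′ probe, 0.47 lower on the start-codon probe and 0.024 higher on the 3′ probe; each panel has its own axis.

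The changes of the 3 Cdkn1a probes were then set against each other through the difference between 2 probes on the same array. In Id1KO_Zrf1KD against WT cells the change of the 3′ probe was smaller than that of the 5′ probe by 1.40, a difference of -1.40 with a standard deviation of 0.11 between arrays of a group. The change of the 5′ probe exceeded that of the start-codon probe by 1.90 in the same comparison, and by 2.66 in Id1KO_Zrf1KD against Id1KO cells. The change of the 3′ probe differed from that of the start-codon probe by 1.79 in Id1KO_Zrf1KD against Id1KO and by -1.30 in Id1KO against WT cells. In each of these 5 cases the 2 groups did not overlap, and the two-sided exact permutation test gave p = 0.0286, the smallest that 4 against 4 arrays allow. Over the 30 probe differences tested this became an adjusted p of 0.0857, and none passed. A limma fit over the 12706 pairs of tested probes that share a gene name, added after these values were seen, put all 9 Cdkn1a differences past the threshold (adjusted p from 3.9e-06 to 0.042), where 19.9%, 21% and 23.2% of all pairs passed in Id1KO against WT, Id1KO_Zrf1KD against Id1KO and Id1KO_Zrf1KD against WT. The 5 differences given first also passed under all 11 other settings of that fit. The other 4 did not: the 3′ minus 5′ difference in Id1KO_Zrf1KD against Id1KO, -0.86, was -0.14 with normexp and not called there or with the deposited values. The 3′ minus 5′ difference in Id1KO against WT, -0.54, was not called under 7 of the 11 settings. For 3′ minus start codon in Id1KO_Zrf1KD against WT, 0.49, the call was lost under 8, and for 5′ minus start codon in Id1KO against WT, -0.76, under 4.

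Cdkn1b, whose product p27 restrains Cdk2 and turns over at the entry to S phase, was read by 2 probes. The brighter one (chr6:134875424-134875483, mm9) had levels of -0.31, -0.39, -0.15 and -0.21 in Id1KO_Zrf1KD cells, 1.32, 1.23, 0.97 and 1.14 in Id1KO cells, and 0.99, 1.07, 1.22 and 1.13 in WT cells. Id1KO_Zrf1KD lay below both other groups on every array, and these overlapped. It was lower than Id1KO by a log2 fold change of -1.43 ± 0.08 (2.69-fold, adjusted p = 6.3e-08) and lower than WT by -1.36 ± 0.08 (2.57-fold, adjusted p = 9.5e-08), while Id1KO against WT gave 0.064 (95% interval -0.12 to 0.25, adjusted p = 0.51). The second Cdkn1b probe (chr6:134873606-134873665) was well above background on 0 of 4 Id1KO_Zrf1KD, 3 of 4 Id1KO and 4 of 4 WT arrays. Its mean levels were -6.02 in Id1KO_Zrf1KD, -4.04 in Id1KO and -4.30 in WT cells. In limma its log2 fold changes in Id1KO_Zrf1KD cells were -1.98 against Id1KO (adjusted p = 2.5e-05) and -1.72 against WT cells (adjusted p = 8.4e-05). Those rest on Id1KO_Zrf1KD signals not well above background. Taken against the lowest signal well above background on each array, the probe was at least 1.92-fold lower than in Id1KO and 1.61-fold lower than in WT cells. These bounds hold for the scaling used here and were not themselves tested. With normexp the log2 fold changes of this probe were -0.35 and -0.34, below those bounds, so the size of its fall depends on the background correction.

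The Ink4 inhibitors did not move as 1 group: Cdkn2a was low in Id1KO cells, Cdkn2b was high in Id1KO_Zrf1KD cells, and Cdkn2c was high in WT cells. Both Cdkn2a probes are assigned in the files to both RefSeq transcripts of the locus, so p16 and Arf messages cannot be told apart, and their first 30 bases are shown because the pair covers neighbouring stretches of that shared sequence.
Cdkn2a probe A_55_P2008438, chr4:88920543-88920602, mm9, minus strand: cttctagcgatgctagcgtgtctagcatgt
Cdkn2a probe A_55_P2008437, chr4:88920405-88920464, mm9, minus strand: ggcatgagaaactgagcgaaggcggccgcg
The brighter probe, A_55_P2008437, had levels of 3.51, 3.45, 3.24 and 3.38 in Id1KO_Zrf1KD cells, 2.01, 2.29, 2.21 and 2.25 in Id1KO cells, and 3.67, 3.74, 3.74 and 3.62 in WT cells. Id1KO was lowest on every array, and Id1KO_Zrf1KD lay just under WT without overlap. Id1KO was lower than WT by a log2 fold change of -1.50 ± 0.07 (2.83-fold, adjusted p = 1.4e-08), Id1KO_Zrf1KD was higher than Id1KO by 1.20 ± 0.07 (2.30-fold, adjusted p = 9.0e-08) and lower than WT by -0.30 ± 0.07 (1.23-fold, adjusted p = 0.0046). The other Cdkn2a probe moved by -1.82 ± 0.10 and 1.65 ± 0.10 in the first 2 comparisons and was not called in the last (-0.16, 95% interval -0.39 to 0.06, adjusted p = 0.18). In the limma fit over probe pairs the 2 Cdkn2a probes differed in Id1KO against WT (0.32, adjusted p = 0.016) and in Id1KO_Zrf1KD against Id1KO (-0.45, adjusted p = 0.0019), but neither was called with normexp, and the first turned to -0.18 with it and to -0.12 with the deposited values.

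Cdkn2b, the neighbour of Cdkn2a on chromosome 4 and a known target of TGF-beta signals, was highest in Id1KO_Zrf1KD cells. Its brighter probe (chr4:88952276-88952335, mm9) had levels of 0.72, 0.69, 0.93 and 0.76 in Id1KO_Zrf1KD cells, -0.29, -0.14, -0.33 and -0.21 in Id1KO cells, and -0.76, -0.93, -0.55 and -0.39 in WT cells. The groups did not overlap, and WT was the most scattered (SD 0.23). Id1KO_Zrf1KD exceeded Id1KO by 1.02 ± 0.11 (2.03-fold, adjusted p = 5.8e-06) and WT by 1.44 ± 0.11 (2.70-fold, adjusted p = 3.9e-07). Id1KO exceeded WT by 0.42 ± 0.11 (adjusted p = 0.0043) on this probe, but the second Cdkn2b probe gave -0.12 (95% interval -0.37 to 0.14, adjusted p = 0.38), and with quantile normalization it was called lower (-0.34, adjusted p = 0.017). The direction of that step is therefore not settled. On the second probe Id1KO_Zrf1KD was 2.18-fold higher than Id1KO and 2.01-fold higher than WT.

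Cdkn2c was read by 1 probe (chr4:109333508-109333567, mm9), with levels of -3.47, -3.79, -4.02 and -3.91 in Id1KO_Zrf1KD cells, -3.94, -3.95, -4.35 and -4.25 in Id1KO cells, and -1.56, -1.55, -1.58 and -1.63 in WT cells. WT stood far above both other groups, which overlapped, and 3 of the 4 Id1KO arrays were well above background. Id1KO was lower than WT by a log2 fold change of -2.54 ± 0.12 (5.84-fold, adjusted p = 1.2e-08) and Id1KO_Zrf1KD was lower than WT by -2.22 ± 0.12 (4.66-fold, adjusted p = 4.3e-08). With normexp these were -1.52 and -1.27. Id1KO_Zrf1KD exceeded Id1KO by 0.33 ± 0.12 (adjusted p = 0.035), with 0.66, 0.46 and -0.07 within the 3 slides, and this call was lost under 6 of 15 other settings, 4 of which left out 1 array (Id1KO replicate 3 or 4, Id1KO_Zrf1KD replicate 1 or 2). Over the 15 settings it ranged between 0.22 and 0.79, the adjusted p reaching 0.0996.

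RefSeq start windows (250 bases before to 50 after a transcript start, GRCm38.p6) were matched by symbol for 8 of the 10 genes, 12 windows in all. Ccnd1 and Ccnd2 are named only. Cdkn1a has 2 windows, whose last 150 bases before the start are shown because its probes are assigned to different, partly overlapping sets of transcripts. Which window belongs to which probe was not settled, since the probe coordinates are on another build.
Cdkn1a window at chr17:29090829-29090978, GRCm38.p6, plus strand: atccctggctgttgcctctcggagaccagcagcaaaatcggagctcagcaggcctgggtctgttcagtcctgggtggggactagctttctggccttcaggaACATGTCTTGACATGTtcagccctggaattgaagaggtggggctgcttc
Cdkn1a window at chr17:29093619-29093768, GRCm38.p6, plus strand: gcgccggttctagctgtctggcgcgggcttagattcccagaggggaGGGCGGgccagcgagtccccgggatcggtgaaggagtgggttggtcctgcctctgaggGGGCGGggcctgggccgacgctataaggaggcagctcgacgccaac
Capitals mark a run that begins and ends with ACATGT, 4 bases apart, in the first window and GGGCGG, a GC box, in the second. The first pattern, searched on both strands after the sequence had been read, is in 4 of 32851 windows (0.0122%). Its presence in the first Cdkn1a window was thus known beforehand, and its rarity tests nothing. The p53 recognition motif, in its short single-copy form and also searched on both strands, is in 2745 windows (8.36%) and in 1 of the 12 windows of these genes. That window is the first of Cdkn1a, with 2 matches, 1 of which overlaps the ACATGT run. GGGCGG is in 35.7% of all windows and in 9 of the 12. Of the other patterns searched (N is any base), CANNTG is in 72.3% of all windows and in 6 of the 12. TATAAA is in 13.6% and in 1 of the 12, and TGANTCA in 7.81% and in 0 of the 12. A match of letters is a description of the window and not a site of binding.

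The genes that act beside these members were taken from 5 lists, each by its brightest tested probe, and are given in the order Id1KO against WT, Id1KO_Zrf1KD against Id1KO and Id1KO_Zrf1KD against WT. Over the brightest probes of all 22593 gene names 42.3%, 32.2% and 32.3% were higher and 29.4%, 39.7% and 32.1% lower in these comparisons (71.7%, 71.9% and 64.4% called). Of 25 cyclin E and A, Cdk2, retinoblastoma and E2f partners of the G1 to S step, 8 rose and 11 fell, then 12 rose and 7 fell, then 11 rose and 8 fell, with medians of -0.048, 0.10 and 0.14. The last split was 9 and 9 with quantile normalization. Cdkn1c, the remaining Cip/Kip inhibitor (p57), rose in Id1KO against WT cells by 1.87 (3.64-fold, adjusted p = 4.1e-09) and fell in Id1KO_Zrf1KD against Id1KO cells (-0.85, adjusted p = 2.3e-06). Cdc25a, the phosphatase that activates Cdk2, rose by 0.73 in Id1KO_Zrf1KD against Id1KO cells (adjusted p = 1.0e-07). Cdkn2d, the Ink4 inhibitor p19, fell in Id1KO_Zrf1KD against WT cells (-0.99, adjusted p = 4.0e-07).

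Replication and mitosis genes shifted by small amounts. Of 16 tested, 5 rose and 9 fell, then 11 rose and 2 fell, then 7 rose and 3 fell, with medians of -0.17, 0.24 and 0.13, and quantile normalization left 2 higher and 10 lower in the first comparison. Mcm4, a subunit of the replicative helicase, fell in Id1KO against WT cells (-0.46, adjusted p = 2.5e-06) and rose by 0.65 in Id1KO_Zrf1KD against Id1KO cells (adjusted p = 1.7e-07). Bub1, a kinase of the spindle checkpoint, did the opposite, at 0.36 (adjusted p = 7.6e-06) and -0.69 (adjusted p = 4.2e-08).

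Of 18 genes of p53 and its targets, 8 rose and 6 fell, then 12 rose and 1 fell, then 12 rose and 4 fell, with medians of 0.15, 0.55 and 0.53. Cdkn1a itself is not among these 18. Phlda3, a repressor of Akt, fell in Id1KO against WT cells (-0.73) and rose by 1.69 in Id1KO_Zrf1KD against Id1KO cells (3.22-fold, adjusted p = 3.7e-10), and Btg2, an antiproliferative factor, gave -0.78 and 1.63 (adjusted p = 3.0e-09 for the rise). Plk2, a kinase of the stress response, rose in all 3 comparisons, by 0.57, 2.16 and 2.73. Pmaip1, which encodes the cell death factor Noxa, fell in Id1KO against WT cells (-1.68, adjusted p = 1.9e-09).

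Among 17 regulators of the Ink4 and Arf locus, mostly Polycomb subunits and Ets and Myc factors, 6 rose and 7 fell, then 11 rose and 1 fell, then 11 rose and 2 fell, with medians of -0.11, 0.44 and 0.21. With quantile normalization the first split was 4 and 8 and the last was 8 and 2. Hmga2, a chromatin factor known to repress the locus, fell in Id1KO against WT cells (-1.43, adjusted p = 3.1e-05) and rose by 2.02 in Id1KO_Zrf1KD against Id1KO cells (adjusted p = 1.9e-06). Myc rose by 2.63 in Id1KO against WT cells (6.18-fold, adjusted p = 1.0e-10) and by 3.68 in Id1KO_Zrf1KD against WT cells (12.8-fold, adjusted p = 6.2e-12).

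Among the 5 lists of partner genes, growth factor and Wnt targets upstream of cyclin D1 had the medians furthest from 0 in all 3 comparisons with the scaling used here. Of 12 genes 6 rose and 1 fell, then 9 rose and 1 fell, then 11 rose and 0 fell, with medians of 0.30, 2.10 and 2.77, and quantile normalization gave 5 and 2 in the first comparison. In that comparison the rank turned on the scaling, since with quantile normalization the median of the replication and mitosis genes lay further from 0. Egr1, an immediate early transcription factor, rose in Id1KO_Zrf1KD against Id1KO cells by 5.15 (35.6-fold, adjusted p = 4.8e-12), and Fosb, of the same response, by 5.43 (43.0-fold, adjusted p = 1.1e-07; 3.38 with normexp). Lef1, the Wnt transcription factor, rose in Id1KO against WT cells by 4.85 (28.8-fold, adjusted p = 6.7e-14) and fell in Id1KO_Zrf1KD against Id1KO cells (-1.02, adjusted p = 4.9e-09). Dusp6, a feedback phosphatase of the ERK pathway, rose by 1.99 in Id1KO against WT cells (adjusted p = 1.1e-10).

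**Figure D4:**
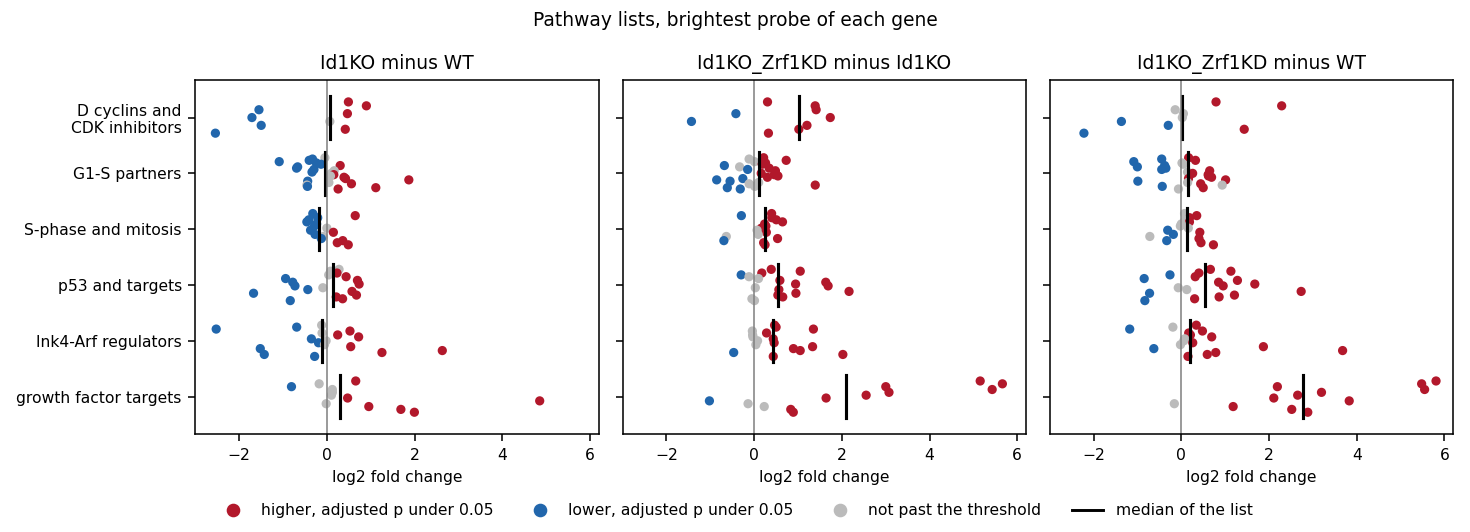
Log2 fold change of each gene (brightest tested probe) in the D cyclins and CDK inhibitors and in 5 lists of partner genes, in Id1KO minus WT, Id1KO_Zrf1KD minus Id1KO and Id1KO_Zrf1KD minus WT, coloured by call, with the median of each list as a bar. Medians of the growth factor targets were 0.30, 2.10 and 2.77, those of the replication and mitosis genes -0.17, 0.24 and 0.13.

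Markers of other cell types changed in the same comparisons as the members, some of which moved with them and some against them, and fewer cells of a type and less RNA per cell cannot be told apart in these bulk samples. In Id1KO_Zrf1KD against Id1KO cells 14 of 14 fibroblast markers, 12 of 12 endoderm markers and 7 of 7 tested trophoblast markers rose, while Cdkn2a, Cdkn2b, Ccnd2, Ccnd3, Ccnd1, Cdkn2c and the 5′ and 3′ signals of Cdkn1a rose and Cdk4 and Cdkn1b fell. In Id1KO against WT cells 8 fibroblast, 6 endoderm and 6 trophoblast markers fell and 3, 4 and 0 rose, while Ccnd3, Cdkn1a, Cdkn2a and Cdkn2c fell and Ccnd1, Ccnd2, Cdk4 and the brighter Cdkn2b probe rose. In Id1KO_Zrf1KD against WT cells 11 of 14 fibroblast, 12 of 12 endoderm and 4 of 7 trophoblast markers rose, and Ccnd1, Ccnd2, Cdkn2b and the 5′ signal of Cdkn1a rose with them. Cdkn1b, Cdkn2c and the brighter Cdkn2a probe fell there, and neither Ccnd3 nor the 3′ signal of Cdkn1a was called. The summed fibroblast marker level, as a multiple of the 75th percentile, was 116 to 123 in Id1KO_Zrf1KD, 27.0 to 28.5 in Id1KO and 34.5 to 37.3 in WT cells, with Lum not well above background in Id1KO and WT cells. The summed endoderm level was 395 to 409 in Id1KO_Zrf1KD, 122 to 128 in Id1KO and 220 to 233 in WT cells, with Afp not well above background in Id1KO and WT cells. For trophoblast markers it was 43.3 to 44.1 in Id1KO_Zrf1KD, 19.5 to 20.7 in Id1KO and 25.2 to 27.8 in WT cells, with Cdx2 not well above background in Id1KO and WT cells and Elf5 not in Id1KO cells. Neural markers summed to 5.44 to 5.96 in Id1KO_Zrf1KD, 3.78 to 4.08 in Id1KO and 6.99 to 7.54 in WT cells, and of 5 tested in Id1KO_Zrf1KD against Id1KO cells 2 rose and 3 fell. Embryonic stem cell markers summed to 944 to 961 in Id1KO_Zrf1KD, 1133 to 1262 in Id1KO and 1056 to 1209 in WT cells, and 5 rose and 3 fell of 10 in Id1KO_Zrf1KD against Id1KO cells. With quantile normalization 5 rose and 2 fell there, and the fall of Dppa5a went from -0.67 to -0.10 and lost its call. In Id1KO against WT cells 4 of these 10 markers rose and 5 fell (3 and 6 with quantile normalization). In Id1KO_Zrf1KD against WT cells 2 rose and 6 fell (2 and 7 with quantile normalization). All sums are given with the 75th percentile scaling only. The part of these changes in the levels of the D cyclins and inhibitors was not tested.

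Gene symbols whose levels ran most like each member across the 12 arrays were sought among 13526, by Pearson's r over the brightest probes, as a description of points that share 3 groups. Cdkn1a ran closest to Dusp16 (r = 0.998), Ddah1 (0.997) and Emilin2 (0.996). For Ccnd2 they were Amot, Ercc4 and Il6 (each 0.997), for Ccnd3 Chst11, Cd82 and Fxyd4 (0.996, 0.994 and 0.994), and for Cdkn2a Mt1, Lpcat3 and Cd164 (0.994, 0.994 and 0.993). Cdkn1b ran closest to Zfp90 (0.992), Cdkn2b to Obfc2a (0.993), Cdkn2c to Idh3g (0.993), Ccnd1 to Clca4 (0.993) and Cdk4 to Guca1a (0.991).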

How the data were processed

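Total RNA of 12 mouse embryonic stem cell samples was amplified from poly(A) tails and labelled with Cy3, per the labels' protocols. Per the file headers, spot intensity values come from Agilent Feature Extraction 10.7.3.1. The processed intensity that was deposited is background subtracted and detrended within the array, not normalized between arrays. The deposited flags are other values, 0 or 1 per spot. The authors also deposited log2 values, whose normalization no label or header states and which served as an alternative.

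Here, log2 processed signal minus the array's 75th percentile was averaged over the unflagged spots of a probe. A probe counted as detected on an array where 50% or more of its spots were well above background, and the 30885 probes detected on every array of a group were tested by limma (version 3.58.1, under R 4.3.3) in 1 fit of 12 arrays, two-sided, with Benjamini-Hochberg adjustment over all tested probes and a threshold of 0.05. The fit was tested on simulated data. Probe differences were tested by exact permutation and, as an addition, by limma over 12706 probe pairs. The number of arrays limits the precision. Named genes were all members, up to 3 genes per list, direction and comparison (some with their values in the other comparisons), and the symbols most alike. The members and lists were chosen with earlier results of these data known. Arrays of the same number did not deviate together (median r = -0.18), so numbers were not used as pairs. Arrays of the same slide did (r from 0.050 to 0.38, median 0.22), which the fit leaves out, and slide as a block was an alternative. The alternatives were quantile normalization, normexp (offset 50) with quantile normalization, the deposited values, no filter, brightest probes only, slide or replicate as a block, and each array left out.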

Additional observations from a re-analysis of the deposited data

Results flagged for a closer look

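Of 51 sets of 4 arrays (17 tested probes in 3 groups), 3 held an array far from the other 3 for its set's range, where chance gives about 1 in 20. The Ccnd2 level of Id1KO_Zrf1KD replicate 3 was 2.01, below the other 3 at 2.11 to 2.13. The Ccnd1 level of WT replicate 2 was 1.94, above the other 3 at 1.68 to 1.73. On the dimmer Ccnd3 probe WT replicate 2 was 5.32, above the other 3 at 5.17 to 5.19.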

How the results depend on the processing

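The numbers of member probes called in Id1KO against WT, Id1KO_Zrf1KD against Id1KO and Id1KO_Zrf1KD against WT, 14, 16 and 11 of 17, were 14, 17 and 12 with quantile normalization, 14, 16 and 12 with normexp or the deposited values, 14, 15 and 10 without the filter or with slide as a block, and 13 to 14, 15 to 16 and 10 to 11 without each array. With the replicate block they were 14, 16 and 10, and with brightest probes only 8, 9 and 6 of 9. With slide as a block the calls of Cdkn2c in Id1KO_Zrf1KD against Id1KO and of Cdk4 A_55_P2166639 in Id1KO_Zrf1KD against WT were lost. Directions turned under a setting or within a slide for the following, of which Cdkn2c had been called. In Id1KO_Zrf1KD against WT the Cdk4 probe A_55_P1998188 was -0.14 with quantile normalization, -0.13 with normexp, -0.12 with the deposited values and -0.026 with slide as a block, Cdk4 A_55_P2163143 was -0.087, -0.086 and -0.073 under the first 3, and Cdkn1a A_51_P363947 was -0.080, -0.082 and -0.081 under them and -0.019 with the slide block. Without single arrays A_55_P1998188 ranged from -0.015 to 0.081 and A_51_P363947 from -0.022 to 0.074. In Id1KO_Zrf1KD against Id1KO the Cdkn1a probe A_55_P1976204 was 0.37, 0.14 and 0.13 with quantile normalization, normexp and the deposited values, and -0.14 to 0.074 without single arrays, and Cdkn2c was -0.074 within slide 3. In Id1KO against WT the Cdkn1b probe A_52_P673863 was -0.086 with quantile normalization and -0.17 within slide 2. In the same comparison Cdkn1b A_55_P2026562 was -0.020 within slide 1 and Cdkn2b A_55_P1979526 was 0.10 within slide 3. The 9 Cdkn1a probe differences, past no threshold by exact permutation, passed in the limma pair fit: for 3′ minus 5′ -0.54, -0.86 and -1.40, for 3′ minus start codon -1.30, 1.79 and 0.49, and for 5′ minus start codon -0.76, 2.66 and 1.90, in the order above. Of these, 0.49 was not called under 8 of 11 settings, -0.54 under 7, -0.76 under 4 and -0.86 under 2. The cause was not tested. Dim probes (A_55_P1976204, A_55_P1986282, A_52_P673863, Cdkn2c) are limited by background.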
